A study of Mus musculus with 3 samples.

Results

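Ccl2, Ccl7, Ccl12, Ccl8 and Ccl24 are 5 genes for secreted CC chemokines that draw monocytes and eosinophils into tissue. They were taken by name from the 13242 genes of a single-cell RNA sequencing table of mouse macrophages, and all 5 were found in it. Their levels are described here across 9 clusters of cells and 3 treatments. The cells came from the quadriceps at week 1 after volumetric muscle loss, in which part of a muscle is cut away, and had been sorted as macrophages. All 3 groups had this injury: one received polycaprolactone (PCL, a synthetic polyester), one urinary bladder matrix (UBM, a decellularised extracellular matrix) and one saline. Each treatment is 1 library. The sources used here do not give the strain and age of the mice, how many were pooled per library, or the markers of the sort.

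Chemokines are small secreted proteins that form gradients along which leukocytes move. In the mouse, CCL2, CCL7 and CCL12 act mainly on the receptor CCR2, which classical monocytes carry and which guides them out of the blood and into injured muscle. Mouse CCL8 acts mainly on CCR8, and CCL24, also called eotaxin-2, acts on CCR3 of eosinophils. Macrophages are a main source of these proteins in damaged tissue.

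The genes are close relatives, which matters for how short reads are assigned to them. In the GENCODE M21 annotation of GRCm38, Ccl2 (chr11:82035571-82037453), Ccl7 (chr11:82045712-82047525), Ccl12 (chr11:82101845-82103400) and Ccl8 (chr11:82115185-82116799) lie in this order on the plus strand of chromosome 11, with gaps of 8.26, 54.3 and 11.8 kb between neighbours. Ccl24 (chr5:135569937-135573049) lies alone on the minus strand of chromosome 5. The authors' notes name another build, so these positions may not be those of the annotation they counted on. The 60-base coding stretches below, from the GENCODE transcripts, are shown because they hold the feature that names the family. Capitals mark the codons of the adjacent cysteine pair, the "CC" of CC chemokines.
Ccl2: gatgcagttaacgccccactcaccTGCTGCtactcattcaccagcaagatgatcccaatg
Ccl7: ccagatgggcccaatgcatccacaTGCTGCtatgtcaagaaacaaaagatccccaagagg
Ccl12: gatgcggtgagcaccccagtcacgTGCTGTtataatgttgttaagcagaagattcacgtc
Ccl8: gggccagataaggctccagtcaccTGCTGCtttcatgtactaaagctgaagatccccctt
Ccl24: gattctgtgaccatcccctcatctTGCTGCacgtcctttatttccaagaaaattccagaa
Over whole coding sequences, identity in pairwise alignments was between 49.2% (Ccl2 with Ccl8) and 66.6% (Ccl7 with Ccl8). The longest run of bases that any pair of transcripts shared was 23, between Ccl2 and Ccl7. The gene Gm17268 overlaps Ccl2 on the other strand in this annotation, and the use of strand in counting is not stated, so reads from both could have been counted together.

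Counts are of unique molecular identifiers (UMIs, one per captured RNA molecule). PCL gave 1753 cells with 11006118 UMIs (median 5662 per cell). UBM gave 2280 cells with 14586276 UMIs (median 5477), and saline 341 cells with 1888343 UMIs (median 4594). Levels are counts per 1000000 UMIs of a library or cluster (CPM), not divided by gene length, since the 3′ libraries count molecules. Intervals are 95% and cover counting error only, and with 1 library per treatment no difference was tested. All 7 macrophage markers were detected in every library, with a summed level of 22479 CPM in PCL, 16149 CPM in UBM and 31566 CPM in saline. Markers of other cells were uneven: the 7 neutrophil markers in the table summed to 1651, 69.9 and 223 CPM in PCL, UBM and saline, and the 8 muscle fibre markers to 39.2, 47.9 and 707 CPM. Neutrophil markers peaked in cluster F2 and fibre markers in cluster R3, and leaving out both clusters is among the alternatives given at the end. Across libraries, 6 cell barcodes occurred more than once. The authors' cluster names are used as deposited, and no source used here explains their letters.

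The 5 chemokines together took 0.360% of all UMIs in the PCL library, 1.63% in the UBM library and 0.354% in the saline library. Ccl8 accounted for 75.2% of that sum in UBM, against 21.8% in PCL and 38.5% in saline. UBM macrophages therefore carried more chemokine RNA in all, and most of the surplus was of this 1 gene. Cells in which none of the 5 was detected made up 2.62% of PCL cells (46 of 1753), 2.46% of UBM cells (56 of 2280) and 26.4% of saline cells (90 of 341). After each cell was thinned to 2500 UMIs, leaving out 154 PCL, 162 UBM and 79 saline cells with fewer, these shares were 10.7%, 9.87% and 37.0%.

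Of the 5 genes, 1 was at least 2-fold higher in PCL than in saline, Ccl24, beside a background of 5.05% of the 2829 genes that reached 50 CPM in the higher library. None was at least 2-fold lower in PCL than in saline (background 4.38%). Between UBM and saline, 2 were at least 2-fold higher, Ccl8 and Ccl24 (background 4.29% of 2753 genes), and none was at least 2-fold lower (background 7.63%). Between PCL and UBM, none was at least 2-fold higher (background 7.4% of 2772 genes) and 3 were at least 2-fold lower, Ccl12, Ccl8 and Ccl24 (background 3.82%). The median log2 ratio of all these genes was 0.10 for PCL over saline, −0.05 for UBM over saline and 0.17 for PCL over UBM.

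**Figure D1:**
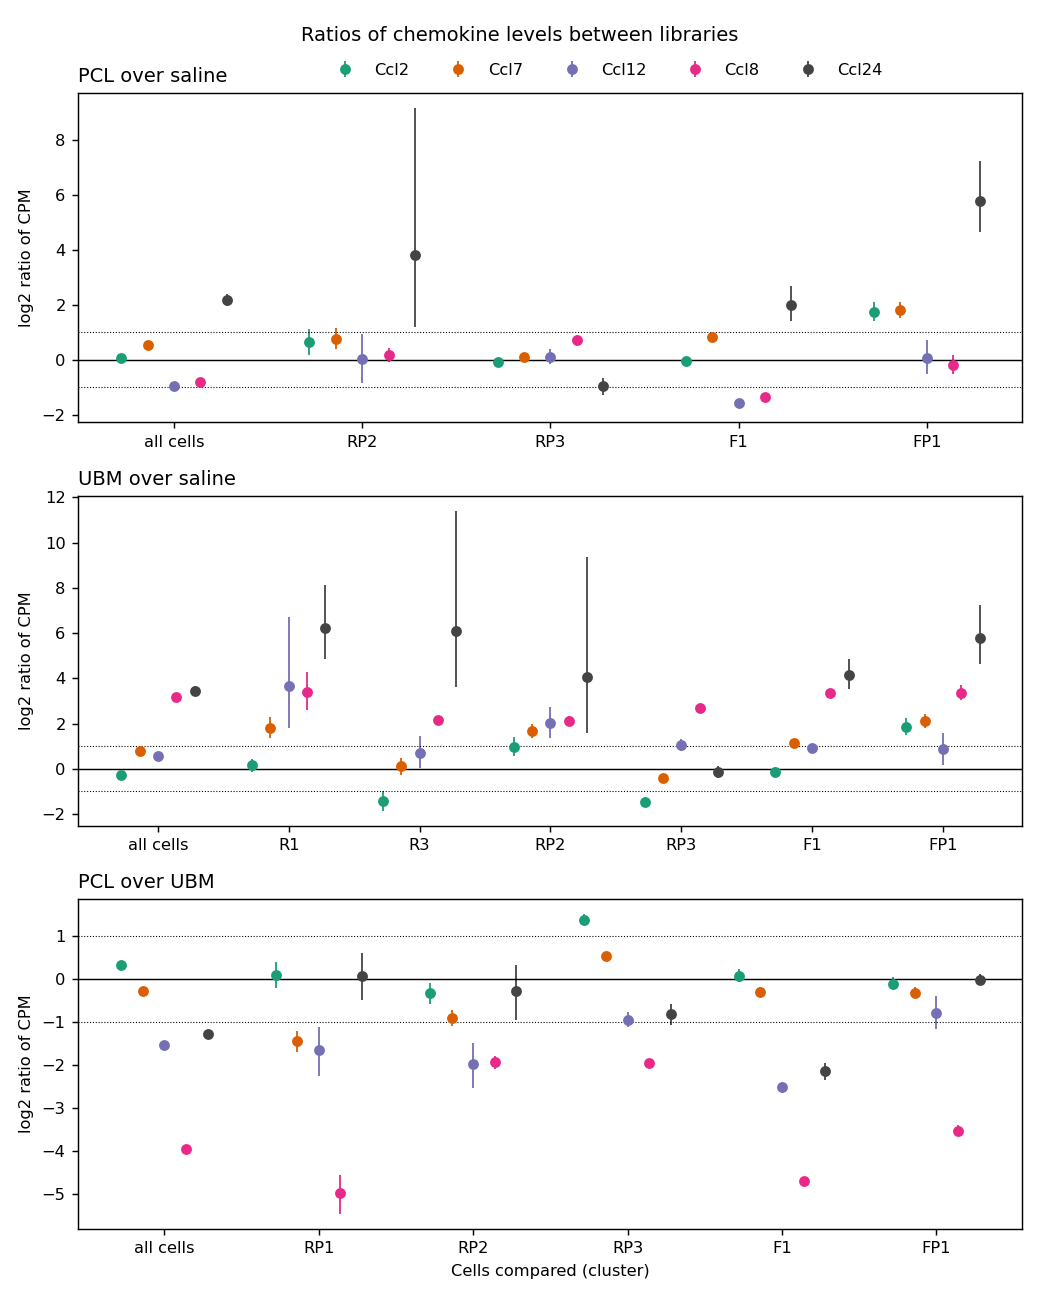
Log2 ratio of CPM between libraries for each of the 5 chemokines, over all cells and within each cluster with at least 30 cells in both libraries; points are ratios, bars are exact 95% counting intervals, and dotted lines mark 2-fold. Ccl8 lies above the 2-fold line in all 6 clusters of UBM over saline and below it in all 5 clusters of PCL over UBM, while Ccl2 lies near 0 over all cells.

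Ccl2, also known as monocyte chemoattractant protein-1, was the member whose level over all cells differed least between treatments. It stood at 795 CPM in PCL (8748 UMIs), 632 CPM in UBM (9217 UMIs) and 757 CPM in saline (1430 UMIs). The PCL level was 1.05 times that of saline (0.992 to 1.11), and the UBM level was 0.834 times that of saline (0.789 to 0.883). Without the cells of cluster R2, all from UBM, UBM had 476 CPM of Ccl2, and Ccl7 was then the member that differed least. A similar level over all cells covered unlike levels within clusters. In RP3, Ccl2 had 2161 CPM in PCL, 830 CPM in UBM and 2264 CPM in saline, so UBM cells of that cluster were 2.73-fold lower than saline cells (2.45 to 3.04). In FP1, it had 473 CPM in PCL, 512 CPM in UBM and 141 CPM in saline, a 3.35-fold higher level in PCL (2.64 to 4.31) and a 3.62-fold higher level in UBM (2.80 to 4.75) than in saline. In F1 the 3 libraries were within counting error of each other, at 1362, 1293 and 1421 CPM in PCL, UBM and saline. This rested in part on single cells. Without the F1 cell highest in Ccl2 in each library, UBM was 0.833 times saline (0.715 to 0.969) and PCL was 1.26 times UBM (1.11 to 1.42). PCL was then 1.05 times saline (0.947 to 1.16). Over the cells of all libraries together, Ccl2 was highest in R2, at 1526 CPM, followed by RP3 and F1, and lowest in R3, at 163 CPM. Within libraries the order differed: RP3 was above the R2 level in PCL and in saline, F1 was above RP3 in UBM, and FP1 was below R3 in saline, at 141 and 277 CPM.

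Ccl7, monocyte chemoattractant protein-3, had 1333 CPM in PCL (14675 UMIs), 1612 CPM in UBM (23511 UMIs) and 925 CPM in saline (1746 UMIs). It was higher in both scaffold libraries than in saline, by 1.44-fold in PCL (1.37 to 1.52) and 1.74-fold in UBM (1.66 to 1.83), neither past 2-fold. Within clusters it was at least 2-fold higher in UBM than in saline in 4 of 6, namely F1, FP1, R1 and RP2, with FP1 at 850 against 197 CPM and R1 at 536 against 153 CPM. In R3 UBM was 1.07 times saline (0.836 to 1.40). Without the highest R3 cell of each library it was 2.98 times saline (1.97 to 4.70), so R3 was then also past 2-fold. In RP3 the direction was the other way, with 2592 CPM in UBM and 3474 CPM in saline. PCL cells were higher than saline cells in all 4 clusters compared, from 1.08-fold in RP3 (1.00 to 1.17) to 3.47-fold in FP1 (2.83 to 4.29). With the level of each library's lowest cluster taken off, PCL was below saline in RP2 and RP3 (log2 ratios −1.49 and −0.08). With the cells of all libraries pooled, R2 at 3737 CPM, RP3 at 3095 CPM and F1 at 2436 CPM stood first and R3 at 374 CPM last. Within libraries, RP3 of PCL had 3761 CPM, F1 of UBM at 3071 CPM was above RP3 of UBM, and R3 of saline at 293 CPM was above FP1 and R1 of saline. That last order rested on 1 cell. Without the highest cell of each cluster, saline had 99.8 CPM in R3, 154 CPM in FP1 and 111 CPM in R1.

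Ccl12, monocyte chemoattractant protein-5 of the mouse, had 198 CPM in PCL (2174 UMIs), 575 CPM in UBM (8392 UMIs) and 384 CPM in saline (726 UMIs). PCL was lower than either other library, 1.95-fold below saline (1.79 to 2.12) and 2.91-fold below UBM (2.78 to 3.05). In F1, the 7 monocyte markers summed to 2670 CPM in PCL, 1267 CPM in UBM and 1122 CPM in saline, and the part of these cells in the Ccl12 level was not tested. In this cluster Ccl12 had 488 CPM in PCL, 2799 CPM in UBM and 1461 CPM in saline. F1 cells in PCL were thus 5.74-fold lower than in UBM (5.25 to 6.27) and 2.99-fold lower than in saline (2.70 to 3.31). Outside F1, Ccl12 differed by under 1.1-fold between PCL and saline in FP1, RP2 and RP3, and each of these intervals held 1. Without the highest cell of each library in these clusters, PCL was 1.72-fold above saline in FP1 (1.01 to 3.17), 1.75-fold in RP2 (0.798 to 4.22) and 1.02-fold in RP3 (0.827 to 1.26). A single F1 cell gave 153 of the 726 Ccl12 UMIs of the saline library, and without the highest cell of each library the F1 levels were 467 CPM in PCL, 2281 CPM in UBM and 1061 CPM in saline. The UBM level was above the saline level in all 6 clusters compared, at least 2-fold in 3 of them, R1, RP2 and RP3. Without the highest cell of each library in the cluster, it was also past 2-fold in F1, FP1 and R3, at 2.15-fold, 2.18-fold and 2.65-fold. The R1 value rests on 2 saline UMIs. Once the level of each library's lowest cluster was taken off, UBM was below saline in FP1 and R3.

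Ccl8, monocyte chemoattractant protein-2, showed the widest span. It had 784 CPM in PCL (8634 UMIs), 12231 CPM in UBM (178412 UMIs) and 1360 CPM in saline (2569 UMIs). UBM was the one high library: only 3 genes of the whole table had more UMIs in it. UBM exceeded saline 8.99-fold (8.65 to 9.35), the 18th highest ratio of 2753 genes. PCL was 15.6-fold lower than UBM (15.3 to 15.9), the 4th lowest ratio of 2772 genes. PCL was also 1.73-fold lower than saline (1.66 to 1.81). With the 4 shared clusters weighted equally, PCL was 1.40 times saline, and RP3 had the highest levels entering that value. Within these clusters, PCL over saline was 0.389 in F1 (0.348 to 0.436), 0.883 in FP1 (0.699 to 1.13), 1.13 in RP2 (0.946 to 1.36) and 1.66 in RP3 (1.57 to 1.75).

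The UBM difference in Ccl8 was present in every cluster that could be compared. In RP3, Ccl8 had 9771 CPM in PCL, 37981 CPM in UBM and 5893 CPM in saline. In F1 it had 455 CPM in PCL, 11806 CPM in UBM and 1167 CPM in saline. In FP1 it had 139 CPM in PCL, 1613 CPM in UBM and 158 CPM in saline. In each of these clusters UBM was the highest library. UBM over saline ranged from 4.33-fold in RP2 (3.76 to 5.02) to 10.4-fold in R1 (6.05 to 19.6), with 10.1-fold in F1, 10.2-fold in FP1, 6.45-fold in RP3 and 4.52-fold in R3. Ccl8 was the only member at least 2-fold higher in all 6 of these clusters, which 0.654% of genes were, and no member was at least 2-fold lower in all 6 (0.69% of genes). PCL over UBM was 3.83-fold lower in RP2, 3.89-fold lower in RP3, 11.6-fold lower in FP1, 26.0-fold lower in F1 and 32.0-fold lower in RP1. Ccl8 was again the only member at least 2-fold lower in all 5, which 0.541% of genes were, and no member was at least 2-fold higher in all 5 (1.37% of genes). Between PCL and saline no member was at least 2-fold higher in all 4 clusters compared (1.34% of genes) or at least 2-fold lower in all 4 (0.46% of genes). The F1 level in UBM rests on 43 cells, 1 of which gave 28.1% of their Ccl8 UMIs. Without the highest cell of each library, F1 had 8808 CPM in UBM and 948 CPM in saline.

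Free RNA in the droplets can add UMIs to cells that do not make a transcript, and its part in the cluster levels was not tested. The lowest UBM cluster was R1, at 468 CPM of Ccl8, and the 8 UBM cells of the neutrophil-marked cluster F2 had 1351 CPM (985 to 1807), near the 1613 CPM of FP1. With the level of each library's lowest cluster taken off, UBM remained above saline, by 10.1-fold in F1, 10.2-fold in FP1, 6.41-fold in RP3, 4.29-fold in R3 and 4.02-fold in RP2. The ratio of Ccl8 to Ccl24 UMIs ran from 0.448 in R1 to 65.0 in RP3 in UBM, and from 0.209 in FP1 to 29.5 in RP3 in PCL.

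**Figure D2:**
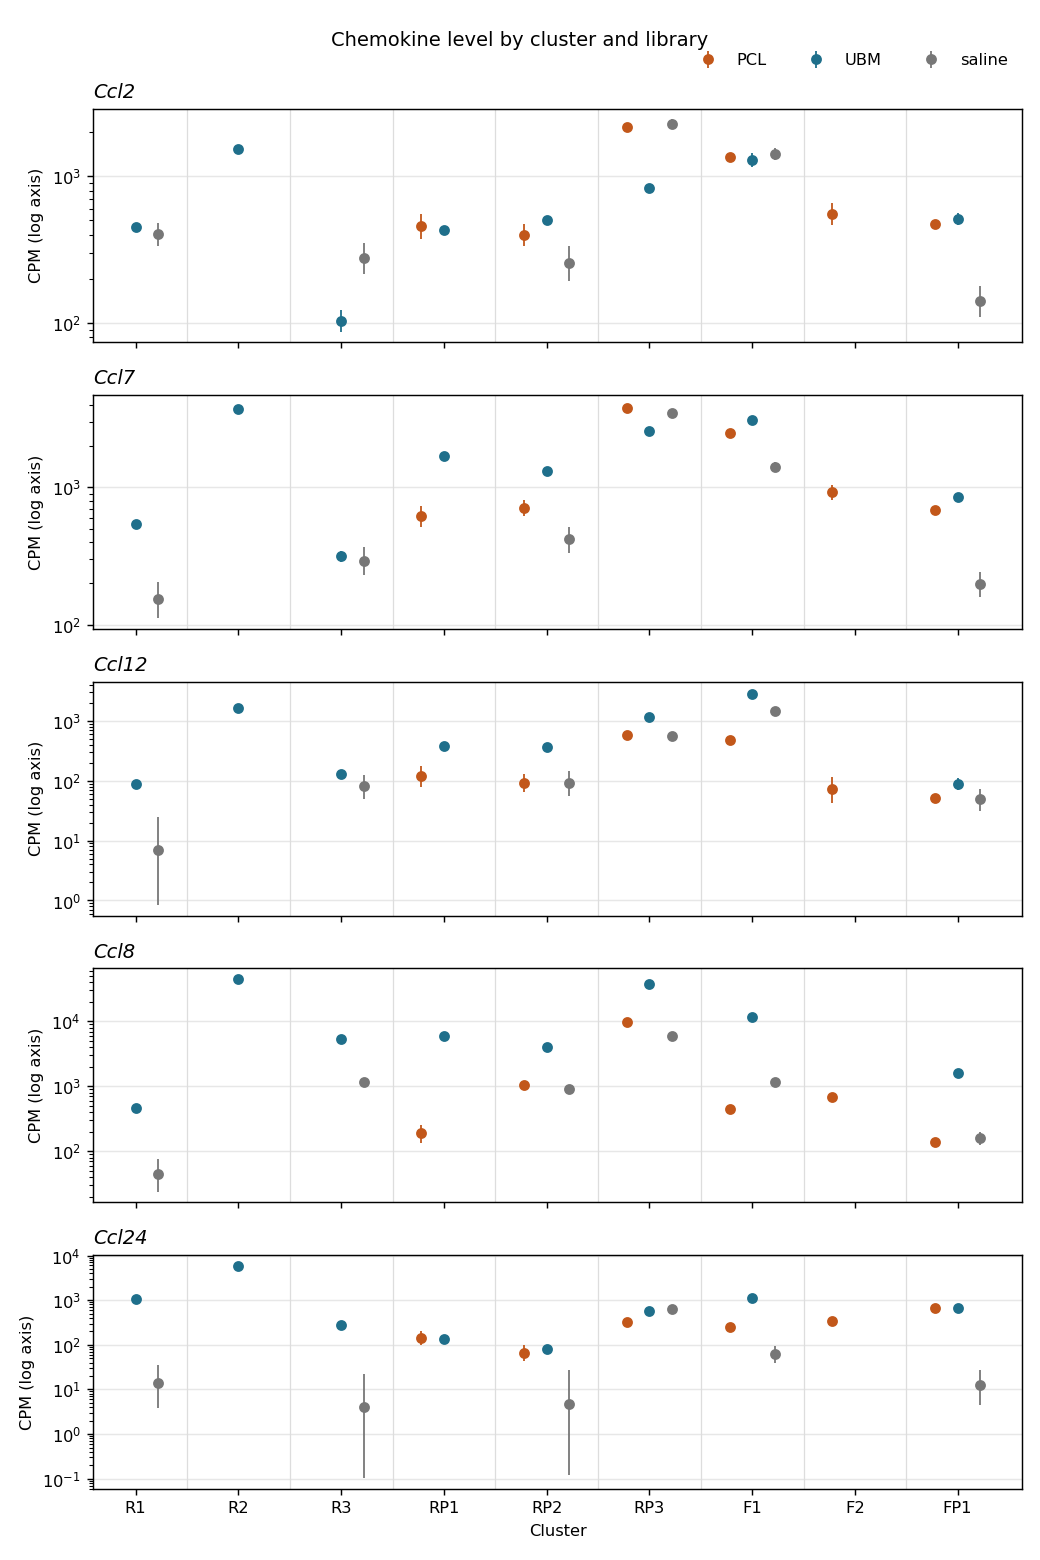
Level of each chemokine in CPM (log axis) by cluster for the PCL, UBM and saline libraries, for sets of at least 20 cells; points are levels and bars exact 95% Poisson counting intervals. R2 holds UBM cells only and has the highest Ccl2, Ccl7, Ccl8 and Ccl24 of the UBM clusters, whereas Ccl12 is higher in the 43 UBM cells of F1.

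Ccl24, eotaxin-2, had 495 CPM in PCL (5445 UMIs), 1211 CPM in UBM (17658 UMIs) and 110 CPM in saline (208 UMIs). Both scaffold libraries were above saline, PCL by 4.49-fold (3.91 to 5.18), the 32nd highest ratio of 2829 genes, and UBM by 10.99-fold (9.59 to 12.7), the 13th highest of 2753. PCL was 2.45-fold lower than UBM (2.37 to 2.52). Which cells held the transcript differed by library. In PCL, FP1 held 79.8% of the Ccl24 UMIs. In UBM, R2 held 71.6%, and in saline RP3 held 83.7%. No cluster held most of the Ccl24 in more than 1 of the libraries.

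Within FP1, Ccl24 had 666 CPM in PCL (4346 UMIs), 676 CPM in UBM (536 UMIs) and 12.3 CPM in saline (6 UMIs). PCL and UBM cells of FP1 were indistinguishable by counting error, with a ratio of 0.986 (0.901 to 1.08), and PCL cells were 54.2-fold above saline cells, with a wide interval (24.9 to 148). In F1 the levels were 251 CPM in PCL, 1119 CPM in UBM and 62.6 CPM in saline. In R1, Ccl24 had 1045 CPM in UBM (2532 UMIs) and 13.9 CPM in saline (4 UMIs), a ratio of 75.3 (29.4 to 277). UBM was at least 2-fold above saline in 5 of the 6 clusters compared, and RP3 was the exception, with 331 CPM in PCL, 584 CPM in UBM and 648 CPM in saline, where PCL was 1.96-fold lower than saline (1.59 to 2.42) and UBM within counting error of saline. PCL was at least 2-fold above saline in the other 3 of the 4 clusters compared, FP1, F1 at 4.01-fold (2.63 to 6.44) and RP2 at 13.9-fold (2.25 to 572), where saline had 1 UMI. FP1 made up 59.1% of PCL cells (1036 of 1753) and 21.1% of saline cells (72 of 341). With the 4 shared clusters weighted equally, PCL was 1.81-fold above saline, and RP3 had the highest saline level entering that value.

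**Figure D3:**
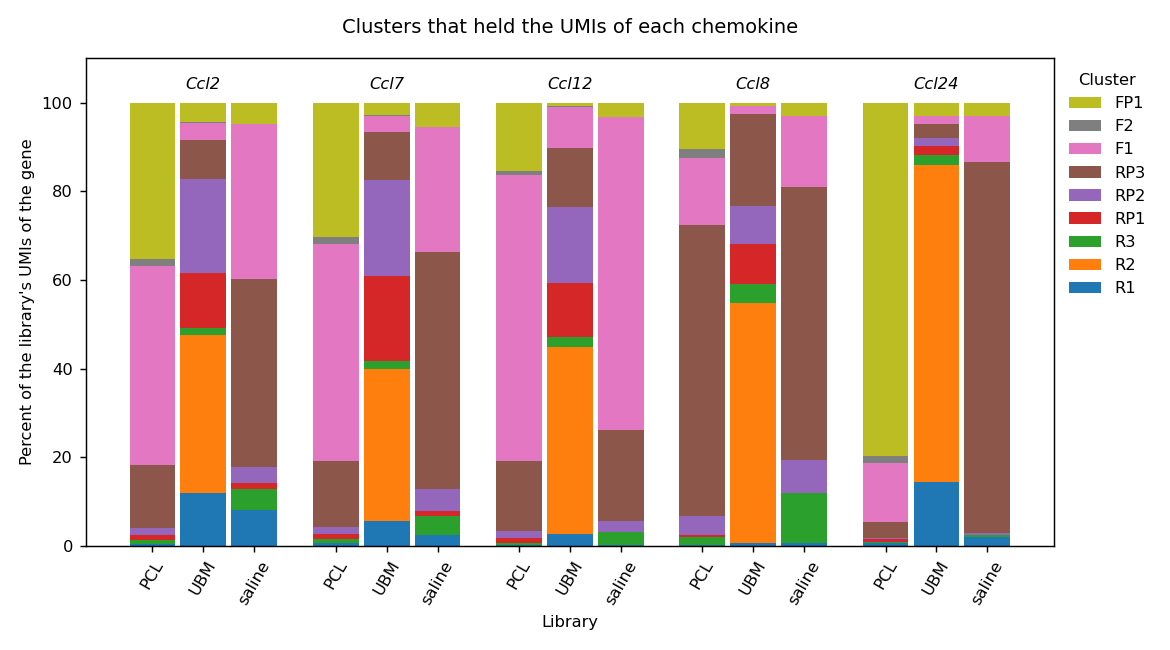
Percent of each library's UMIs of a chemokine that fell in each of the 9 clusters, as stacked bars for PCL, UBM and saline. Ccl24 sits mainly in FP1 in PCL (79.8%), in R2 in UBM (71.6%) and in RP3 in saline (83.7%), while F1 gave 64.6% of Ccl12 in PCL and 70.7% in saline.

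R2, a cluster of 254 UBM cells, had the highest summed level of the 5 chemokines. No R2 cell came from PCL (0 of 1753, which allows up to 0.171%) or from saline (0 of 341, up to 0.880%). Since the authors clustered on expression, Ccl8 and Ccl24 may have helped to define R2, and its levels are a description. Ccl8 reached 44733 CPM there and ranked first among all genes. The median R2 cell had 295 Ccl8 UMIs, which was 3.995% of its RNA molecules, and in the highest cell Ccl8 was 16.9%. Ccl24 followed at 5847 CPM, with Ccl7 at 3737, Ccl12 at 1643 and Ccl2 at 1526 CPM. Together the 5 made up 5.75% of R2 UMIs, against 4.31% in RP3 cells of UBM, 1.66% in RP3 cells of PCL and 1.28% in RP3 cells of saline. All 5 were detected in 189 of 254 R2 cells (74.4%), and in 122 of 246 cells (49.6%) after thinning to 2500 UMIs. R2 was 11.1% of UBM cells and gave 54.2% of the library's Ccl8 UMIs, 42.3% of its Ccl12, 35.8% of its Ccl2 and 34.4% of its Ccl7.

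Several UBM differences shrank without R2, an alternative chosen after the data were seen. UBM then exceeded saline by 4.83-fold for Ccl8 and 3.66-fold for Ccl24, and the ratio was 1.34 for Ccl7 and 1.01 for Ccl12. For Ccl2 the difference grew instead, with UBM at 0.629 times saline, against 0.834 times with R2. PCL over UBM stayed far below 1 for Ccl8, at 0.119. For Ccl24 that ratio turned to 1.23. Within clusters that both libraries held, the Ccl24 ratio of PCL over UBM was 0.224 in F1 (0.196 to 0.257) and 0.566 in RP3 (0.478 to 0.668), and counting intervals held 1 in FP1, RP1 and RP2. With the shared clusters weighted equally, it was 0.562.

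RP3 was present in all 3 libraries, with 92 PCL, 200 UBM and 68 saline cells. It ranked second for Ccl2, Ccl7, Ccl12 and Ccl8 when the cells of all libraries were pooled. F1 was above RP3 for Ccl12 in UBM and saline, and for Ccl2 and Ccl7 in UBM. The 11 resident-like markers summed to 16834 CPM in PCL, 15551 CPM in UBM and 17848 CPM in saline in RP3. In other UBM clusters they summed to 15226 CPM in RP1, 14770 CPM in R2 and 12750 CPM in RP2. Within RP3, the 5 chemokines did not move together. Ccl8 was 6.45-fold higher in UBM than in saline (6.13 to 6.78) and Ccl12 2.08-fold higher (1.75 to 2.49). Ccl2 and Ccl7 were 2.73-fold and 1.34-fold lower in UBM than in saline, and Ccl24 differed by less than counting error. PCL cells of RP3 were close to saline cells for Ccl2, Ccl7 and Ccl12, at 0.955, 1.08 and 1.08 times the saline level, and higher for Ccl8 at 1.66 times (1.57 to 1.75).

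Counts per cell showed 2 patterns for the most variable members. Ccl8 was broad in the clusters where it was high: 95.3% of R2 cells (242 of 254) had at least 10 Ccl8 UMIs, as did 76.1% of PCL, 89.0% of UBM and 52.9% of saline cells of RP3. After thinning these shares were 91.5% in R2 and 63.9%, 83.4% and 44.9% in PCL, UBM and saline cells of RP3. Only in R2 did many cells have at least 10 Ccl24 UMIs, at 71.7% of cells (182 of 254), and 45.9% (113 of 246) after thinning. In other sets, few cells passed that mark, and the share of Ccl24 that they held varied. In PCL cells of FP1, 98 of 1036 (9.46%, 7.75 to 11.4%) had at least 10 Ccl24 UMIs and held 80.8% of the cluster's Ccl24. In UBM cells of R1, 45 of 289 (15.6%, 11.6 to 20.3%) did and held 93.7%. In RP3, 6 of 92 PCL cells held 34.4% of the cluster's Ccl24 and 3 of 68 saline cells held 19.0%. No saline cell of FP1 or R1 reached 10 UMIs (0 of 72 and 0 of 46). Among the 45 PCL cells of the neutrophil-marked F2, 4 (8.89%, 2.48 to 21.2%) reached 10 Ccl24 UMIs, so this share alone does not set FP1 apart. After thinning, 55 of 946 PCL cells of FP1 and 0 of 33 of F2 reached 10.

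**Figure D4:**
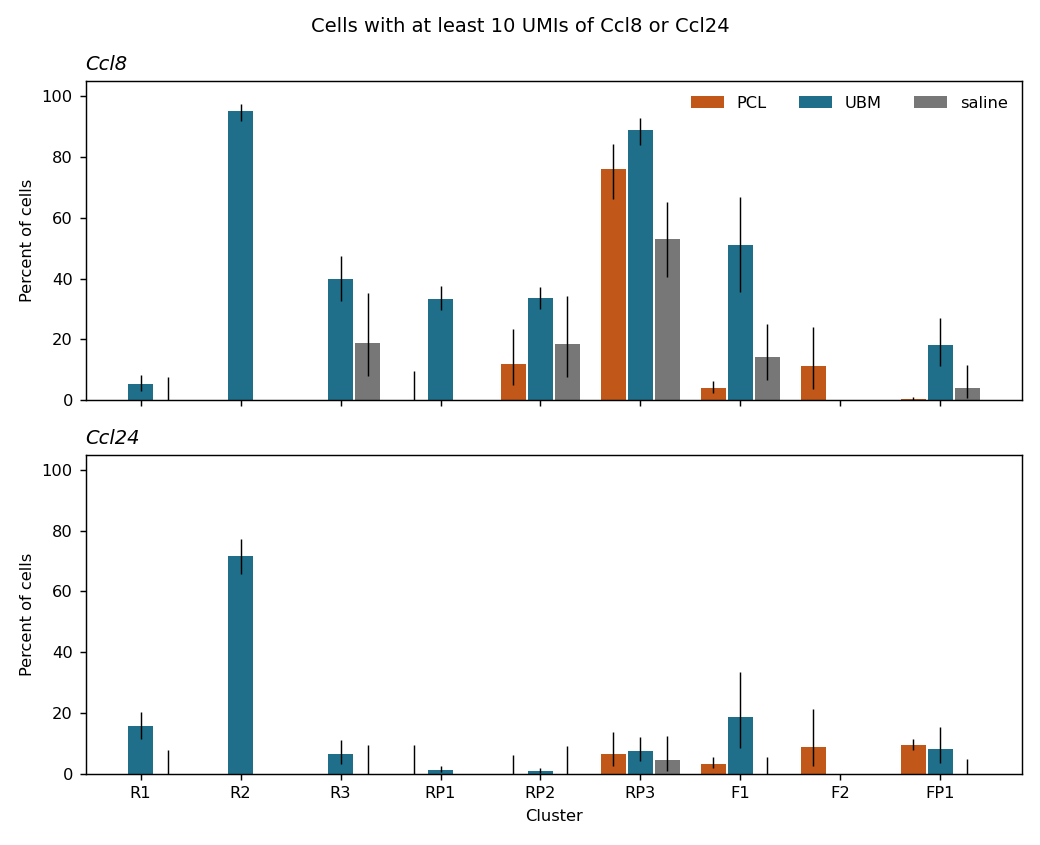
Percent of cells with at least 10 UMIs of Ccl8 (top) or Ccl24 (bottom) by cluster in the PCL, UBM and saline libraries, for sets of at least 20 cells, with exact 95% binomial intervals; sets at 0 show the interval only. Ccl8 passes this mark in 95.3% of R2 cells and in 52.9% to 89.0% of RP3 cells, while Ccl24 passes it in 71.7% of R2 cells and in under 19% of every other set.

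Detection at a single UMI was less informative. In PCL, at least 1 UMI was seen in FP1 cells for Ccl2 in 65.7%, Ccl7 in 81.6%, Ccl8 in 51.7% and Ccl24 in 45.4% (median depth 5530 UMIs). In F2 the shares were 64.4%, 77.8%, 53.3% and 48.9% (median depth 4373 UMIs). Ccl12 was seen in 21.8% of FP1 cells and in 9 of 45 F2 cells. The FP1 and F2 shares in PCL were thus close for all 5 genes, and detection at a single UMI does not set FP1 apart from F2. F2 cells of PCL also held macrophage markers, which summed to 16958 CPM against 21789 CPM in FP1. The part of free RNA in these shares was not tested. Over all cells, Ccl8 was seen in 56.4% of PCL, 91.0% of UBM and 40.8% of saline cells, and after thinning in 35.7%, 77.1% and 31.7%.

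Across the 20 sets of a cluster in a library with at least 20 cells, members kept to partly separate patterns. On the log2(CPM + 10) scale, the Pearson correlation was 0.87 for Ccl2 with Ccl7 and 0.87 for Ccl7 with Ccl12, but 0.43 for Ccl2 with Ccl8 and 0.53 for Ccl8 with Ccl24. It was 0.80 for Ccl12 with Ccl8 and 0.73 for Ccl7 with Ccl8. These sets share libraries and depth, so the values are descriptions. Among 4339 genes with at least 50 CPM in a set, the genes most like Ccl8 were Man1a (a mannosidase of the Golgi, r = 0.92), Cela1 (an elastase, 0.90) and Ap2a2 (an adaptor of clathrin-coated vesicles, 0.90). For Ccl2 they were Snx2 (0.87), Cfp (properdin, 0.82) and Ifi47 (0.80). For Ccl7 they were Rgl1 (0.92), Tnfrsf1a (a receptor for tumour necrosis factor, 0.91) and Etv1 (0.88), and for Ccl12 Tnfrsf1a (0.87), Dck (0.85) and Snx6 (0.85). The gene most like Ccl24 was another CC chemokine, Ccl6 (0.80), followed by Chid1 (0.77) and Gstp1 (0.76), which is a weaker likeness than the other members had. Ccl6 had 4358 CPM in PCL, 5116 CPM in UBM and 2210 CPM in saline.

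Promoter sequence was at hand for Ccl12 and Ccl8, which were both lower in PCL than in UBM. The 60 bases before each start, on the plus strand of GRCm38.p6 from RefSeq, are shown with the one motif found in capitals. They span chr11:82101785-82101844 for Ccl12 and chr11:82115125-82115184 for Ccl8.
Ccl12: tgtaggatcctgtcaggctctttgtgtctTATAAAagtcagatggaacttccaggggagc
Ccl8: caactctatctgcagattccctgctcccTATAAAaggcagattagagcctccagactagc
Both hold TATAAA, beginning 31 bases before the start in Ccl12 and 32 bases before it in Ccl8. Within 250 bases before to 50 after the start, on both strands, TATAAA occurs in 13.6% of 32851 promoters. The letters GGGNNNNNCC (an NF-kB form), TGANTCA (an AP-1 form) and TTCNNNNGAA (a STAT form), and the paired GAAA motif of interferon response elements did not occur in either window, against 50.8%, 7.81%, 6.95% and 3.44% of all promoters.

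The receptors for these ligands were measured in the same macrophages. Of 9 receptor genes listed, 5 were in the table and 4 had at least 50 CPM. Ccr2, the monocyte receptor for CCL2, CCL7 and CCL12, had 295 CPM in PCL, 82.3 CPM in UBM and 378 CPM in saline. It was 4.60-fold lower in UBM than in saline (4.18 to 5.05). Of the genes for these ligands, Ccl7 and Ccl12 were highest in UBM, whereas Ccl2 was lowest there. Without R2, Ccl7 had 1333 CPM in PCL and 1242 CPM in UBM, and Ccl12 had 390 CPM in UBM and 384 CPM in saline. Ccr1, which binds several CC chemokines, had 216 CPM in PCL, 68.0 CPM in UBM and 70.4 CPM in saline and was 3.06-fold higher in PCL than in saline (2.57 to 3.67). Ccrl2, an atypical receptor, was 2.22-fold lower in PCL and 2.99-fold lower in UBM than in saline. In counts at 2-fold, 1 of 4 receptors was higher and 1 lower in PCL than in saline (background 5.05% and 4.38% of all genes). The counts were 0 and 2 in UBM against saline (background 4.29% and 7.63%), and 2 and 0 in PCL against UBM (background 7.4% and 3.82%). Ccr3, the eosinophil receptor for CCL24, had 37 UMIs in PCL and 57 in UBM and was at 0 in saline, where 0 allows up to 1.59 CPM. The 3 eosinophil markers in the table summed to 3.82 CPM in PCL, 5.28 CPM in UBM and 2.12 CPM in saline, so eosinophil transcripts were near 0 in these sorted libraries.

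Other CC chemokines followed neither the pattern of Ccl8 nor that of Ccl24 as a group. Of 16 listed, 10 were in the table and 4 had at least 50 CPM. Ccl9 was 2.67-fold higher in PCL than in saline (2.56 to 2.78), and Ccl6 was 2.31-fold higher in UBM than in saline (2.24 to 2.39). Ccl3 and Ccl4 were 3.55-fold and 2.24-fold lower in UBM than in saline. Ccl11, eotaxin-1, whose gene lies between Ccl7 and Ccl12, had 3 UMIs in PCL, 14 in UBM and 0 in saline.

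Genes of pathways known to drive chemokine transcription are given by their counts, to be read beside the shares of all genes past 2-fold given above. In a list of 15 NF-kB response genes, 10 passed the level filter in each comparison with saline. Of these, 2 were at least 2-fold higher and 1 lower in PCL than in saline (median log2 ratio −0.26), where the background shares were 5.05% and 4.38%, and 2 were higher and 4 lower in UBM than in saline (median −0.75), where the background shares were 4.29% and 7.63%. The neutrophil chemokine Cxcl3 was 17.7-fold higher in PCL than in saline (13.2 to 24.2), and Il1b was 7.50-fold lower in UBM than in saline (6.98 to 8.06). Between PCL and UBM, 2 of 8 were higher and none lower (median 0.38), where the background shares were 7.4% and 3.82%. In a list of 13 genes of the IL-4 and STAT6 response, 5 of 7 were at least 2-fold higher and none lower in UBM than in saline (median 1.54, background 4.29% and 7.63%). In PCL, 2 of 8 were higher and 3 lower than in saline (median 0.07, background 5.05% and 4.38%). Against UBM, 0 of 8 were higher and 7 lower in PCL (median −1.44, background 7.4% and 3.82%). Arginase-1 (Arg1) had 1102 CPM in PCL, 2973 CPM in UBM and 33.4 CPM in saline. Retnla, a secreted marker of this response, had 20.4 CPM in PCL, 7186 CPM in UBM and 2449 CPM in saline.

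Proteases that cut chemokines outside the cell were represented by 3 of 8 listed genes. All 3 were at least 2-fold higher in PCL than in saline (median log2 ratio 2.25), where 5.05% of all genes were. In UBM 2 were higher and 1 was lower than in saline (median 2.95, background 4.29% and 7.63%). Mmp12, macrophage elastase, had 699 CPM in PCL, 1139 CPM in UBM and 147 CPM in saline. Mmp14, a membrane-bound protease, had 139 CPM in PCL, 29.5 CPM in UBM and 66.2 CPM in saline. Between PCL and UBM, 1 of the 3 was higher and none lower (median −0.17, background 7.4% and 3.82%). Of 7 genes listed for monocyte survival and arrest, 5 were in the table and 4 had at least 50 CPM. Of these, none was at least 2-fold higher and 1 was lower in PCL than in saline and in UBM than in saline (medians −0.30 and −0.57). The background shares for lower genes were 4.38% and 7.63%. Against UBM, 1 was higher in PCL (median 0.63, background 7.4%). That gene was Cx3cr1, the fractalkine receptor of patrolling monocytes, with 66.8 CPM in PCL, 7.88 CPM in UBM and 178 CPM in saline.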

How the data were processed

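The authors deposited a table of raw UMI counts (whole numbers up to 1880) for 13242 genes in 4374 cells, and a second table with each cell's treatment and cluster. Per the submitters' processing notes and design text, 10x 3′ libraries were counted with Cell Ranger (no version given) and clustered in Seurat 2. The notes list build hg38, whereas the table has mouse gene symbols. The condition names ECM, PBS and Synthetic in the deposited table were matched to UBM, saline and PCL by meaning. The sources used here state no filter on cells or doublets, and no doublet caller was run.

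The members, gene lists and comparisons were chosen with earlier results of these data known. For each gene, UMIs of all cells in a library or cluster were added up and divided by that set's total (CPM). CPM carry exact Poisson intervals, ratios exact conditional binomial intervals and shares Clopper-Pearson intervals, all at 95% and for counting error only. Depth ran from 1888343 UMIs in saline to 14586276 in UBM. The floor for a count of 0 was 3 counts per library. Genes were counted past 2-fold if they had at least 50 CPM in the higher library, and ratios within clusters needed at least 30 cells in both libraries. Named genes were the 5 members, the 3 genes most like each, and up to 2 of the highest and lowest of each list; genes outside this rule were named after their values were seen. Alternatives covered scaling (edgeR 4.0.16 and the size factors of DESeq2 1.42.0 in R 4.3.3), weighting of cells and clusters, cells left out, the pseudocount and the filter. The ratio and interval code was checked on simulated counts. Other steps used Python 3.11.15 with scipy 1.17.1, and Biopython 1.88 for alignments.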

Additional observations from a re-analysis of the deposited data

How the results depend on the processing

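No paired analysis was possible because each treatment has 1 library. The counts of members past 2-fold changed under these alternatives. For PCL over saline, the count of higher members was 0 with clusters weighted equally, and the count of lower members was 1 without ribosomal protein genes and Malat1 in the total (Ccl12), 1 with each cell counted alike (Ccl8) and 1 without F2 and R3 (Ccl12). For UBM over saline, Ccl12 was also past 2-fold higher with clusters weighted equally, at 2.07 times saline. For PCL over UBM, the count of lower members was 1 without R2, where the log2 ratio of Ccl24 was 0.29, against −1.29 with all cells. With clusters weighted equally, Ccl24 in PCL was 0.562 times UBM, so it was not past 2-fold lower. In the first 3 cases for lower members the log2 ratio passed −1 by a small step, from −0.96 for Ccl12 to −1.02 and −1.10, and for Ccl8 from −0.79 to −1.15. The other causes were not tested. The trimmed mean of M values moved every gene by 0.14 for UBM over saline and −0.11 for PCL over UBM on the log2 scale. Leaving out R2 and taking off the level of the lowest cluster were chosen after the data were seen. The second changed the sign of 9 of the within-cluster ratios, none of which was past 2-fold before it. After it, Ccl7 (−1.49) and Ccl12 (−1.02) in RP2 for PCL over saline, Ccl12 in FP1 for UBM over saline (−5.15) and Ccl2 in RP1 for PCL over UBM (−2.56) were past 2-fold lower. Saline has the fewest cells, and its Ccl24 levels outside RP3 rest on 22 UMIs or fewer per cluster.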

Other observations

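Cells rich in Ccl24 are described in 2 main sets, FP1 of PCL and R1 of UBM. These differ in both cluster and library, so between them the cluster and the treatment cannot be told apart. A smaller set, F1 of PCL, shares its library with FP1 of PCL and is given last. In each set the rich cells were picked by their Ccl24 UMIs, at least 10, after the levels were seen. They are set against cells of the same cluster and library with none, as a description. In PCL cells of FP1, the 98 rich cells (median depth 6305 UMIs) were compared with 566 cells without Ccl24 (median 5080 UMIs). The genes with the highest ratios were Penk, the precursor of enkephalins, at 67.5 against 6.93 CPM, Wfdc21 at 183 against 19.9 CPM, and Inhba, a subunit of activin, at 56.8 against 6.33 CPM. Areg, a ligand of the epidermal growth factor receptor, had 155 against 28.0 CPM. Each of these 4 was detected in 13 to 15 of the 98 rich cells. Cxcl3, a neutrophil chemokine, had 1702 against 462 CPM and was detected in 66 of the 98.

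In UBM cells of R1, the 45 rich cells (median depth 7151 UMIs) were compared with 176 cells without Ccl24 (median 7245 UMIs). The highest ratios were those of Rnase2a, an eosinophil-type ribonuclease, at 630 against 16.0 CPM, and Gja1 at 52.0 against 2.78 CPM. Next were Chil3, a chitinase-like protein, at 800 against 73.0 CPM, and Cd163, the haemoglobin scavenger receptor, at 66.5 against 6.95 CPM. Of the 45 rich cells, Rnase2a was detected in 19, Chil3 in 24, and Gja1 and Cd163 in 9 each. In PCL cells of FP1, Chil3 was 1.45 times the level of cells without Ccl24, while Rnase2a and Cd163 each had 1 UMI in the rich cells. Inhba was higher in the rich cells of R1 too, by 8.32-fold, on 8 UMIs against 4. Of the genes with at least 50 CPM in either set, 39 of 2734 (1.43%) were at least 2-fold higher in the rich cells of FP1 and 144 of 2638 (5.46%) in those of R1. In PCL cells of F1, the 15 rich cells (median depth 7240 UMIs) were compared with 254 cells without Ccl24 (median 5490.5 UMIs). The highest ratios were those of Areg at 8.91, with its UMIs in 1 rich cell, Zdhhc4 at 7.60 and Ppbp at 7.34. In FP1 of PCL the ratios of Areg, Zdhhc4 and Ppbp were 5.53, 0.775 and 1.74. Chil3 and Cxcl3 had ratios of 2.33 and 2.70 in F1. Of 2954 genes, 154 (5.21%) were at least 2-fold higher in the rich cells of F1.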
